A study of Mus musculus with 6 samples.

Results

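The genes described here are 10 components and transcriptional targets of the cellular oxygen response in mouse heart: the hypoxia-inducible factor subunits Hif1a and Epas1, the factor hydroxylases Egln1 and Egln3, the collagen prolyl 4-hydroxylase subunits P4ha1 and P4ha2, and Adm, Car9, Ankrd37 and Ndrg1. They were chosen by gene name, and each of the 10 names stood on a single row among the 54532 genes of the deposited expression table. The 10 genes and the related lists were chosen with earlier results of these data known. Their shares of called genes are therefore descriptions and not independent tests. Polyadenylated RNA was sequenced from hearts of mice aged 4 days, in 3 Wtap-CKO hearts and 3 Wtapflox/flox hearts described as independent biological replicates. Both groups are defined by the Wtap locus: the Wtap-CKO mice carry a conditional knockout of Wtap, and the Wtapflox/flox mice carry the floxed alleles and were the animals they were compared with. Neither the Cre driver nor the deleted exons nor the animals' sex and strain background could be read from the labels. The question was which transcripts of the heart depend on Wtap, whose protein is a regulatory subunit of the methyltransferase complex that places N6-methyladenosine (m6A) in messenger RNA.

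In oxygenated cells the EGLN enzymes hydroxylate prolines of the HIF alpha subunits (HIF-1 alpha from Hif1a, HIF-2 alpha from Epas1), and the hydroxylated proteins are bound by VHL and degraded. When oxygen is scarce the alpha subunits persist, pair with ARNT and bind short hypoxia-response elements near target genes. The abundance of the factors is therefore set largely at the protein level, which RNA sequencing does not measure, while Egln1, Egln3, P4ha1, P4ha2, Adm, Car9, Ankrd37 and Ndrg1 are among their known transcriptional targets. In the heart the pathway is known for its part in the growth of the chambers and vessels before birth and in the change of fuel use around birth.

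Transcripts of 6 of the 10 genes rose in Wtap-CKO hearts, and 0 fell. P4ha1, P4ha2, Adm, Car9, Egln1 and Ndrg1 were higher, with ratios of the group means between 1.44 for Egln1 and 3.03 for Car9 (n = 3 each). Transcripts of the HIF alpha genes themselves, Hif1a and Epas1, did not pass the test, and neither did Egln3 and Ankrd37. Values are FPKM, the reads of a gene scaled by gene length and library size, and differences were tested by limma on log2(FPKM + 1) at a Benjamini-Hochberg adjusted p of 0.05 over the 12568 genes whose mean reached 1 FPKM. Among all tested genes 9.91% were called higher and 6.69% lower in Wtap-CKO hearts, or 16.6% in either direction. In 7 of the 10 genes, the 6 called ones and Egln3, every Wtap-CKO heart lay above every Wtapflox/flox heart, which was the case for 19.8% of all tested genes. The median log2 fold change of the 10 genes was 0.50, against 0.00 over all tested genes. All 10 genes passed the filter, but Car9 passed it only through its Wtap-CKO values and had to differ; 5 of the other 9 genes were called. Whole hearts were sampled, so more cells of a type and more RNA per cell cannot be told apart. Counts of called genes moved with the processing: 3 genes (P4ha1, Adm and Car9) were called under every alternative in which they were tested, and leaving out single hearts left between 3 and 6 calls. P4ha2, Egln1 and Ndrg1 were not called under TPM or with no filter.

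**Figure D1:**
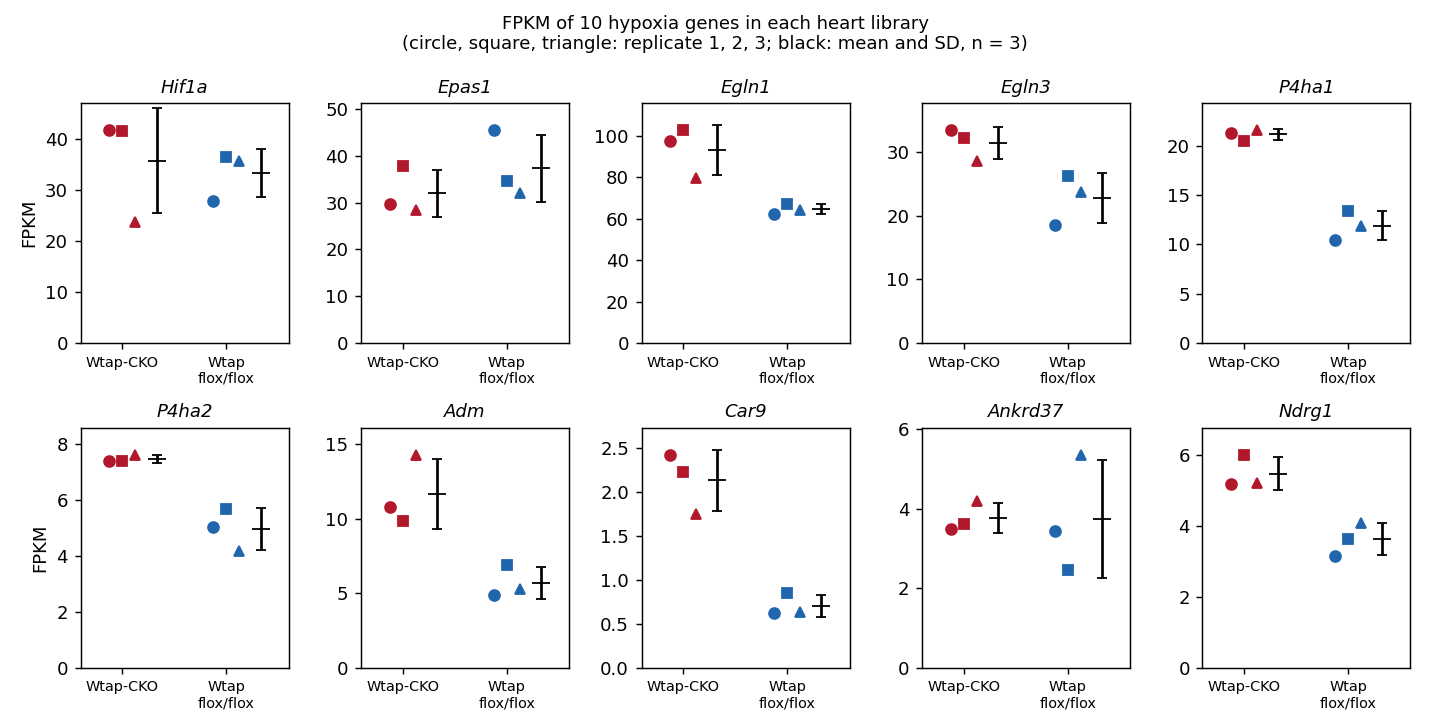
FPKM of the 10 hypoxia genes (vertical axes, starting at 0) in the 3 Wtap-CKO hearts (red, left) and the 3 Wtapflox/flox hearts (blue, right); symbols mark the replicate, and black bars give the mean and SD. In 7 panels all red symbols lie above all blue ones, while Hif1a, Epas1 and Ankrd37 overlap.

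The libraries held between 15649028 and 18045599 reads or read pairs assigned to genes, and the first principal component, with 52.6% of the variance, separated the groups. On the second, with 20.4%, Wtap-CKO 3 lay away from the rest of its group. Without that heart the same 6 of the 10 genes were called higher. The targeted gene itself, Wtap, had 9.32, 7.75 and 9.46 FPKM in Wtap-CKO hearts, against 7.77, 8.74 and 10.9 FPKM in Wtapflox/flox hearts. The groups overlapped, and the log2 fold change was -0.04 (95% interval -0.37 to 0.29, limma adjusted p = 0.893). FPKM counts reads over the whole gene, and with the deleted exons not known here this value does not check the labels. Cardiomyocyte markers were high in both groups, with a summed level between 18940 and 22680 FPKM in Wtap-CKO hearts and between 18020 and 21780 FPKM in Wtapflox/flox hearts. Smooth muscle and pericyte markers summed to between 794 and 1017 FPKM in Wtap-CKO hearts and between 636 and 858 FPKM in Wtapflox/flox hearts. Erythroid markers summed to between 1229 and 2211 FPKM in Wtap-CKO hearts and between 666 and 2176 FPKM in Wtapflox/flox hearts.

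The window of 250 bases before the RefSeq gene start was searched for the core of the hypoxia-response element, because most of these genes are known HIF targets. The core was searched as ACGTG and as GCGTG on both strands, and matches may overlap. RefSeq promoters on GRCm38.p6 were found for 8 of the 10 genes, and Epas1 and Ndrg1 had no entry. The RefSeq start can differ from the gene span in the deposited data. The Hif1a, P4ha2 and Ankrd37 windows lay inside those spans, and the Egln1 and Car9 windows partly so. All 8 windows held at least 1 core and 7 held ACGTG, whereas 38.6% of all 32851 promoters in the table held either core, 16.6% held ACGTG and 28.2% held GCGTG. The windows differed in base composition, which bears on how often such letters occur: 86.0% of the Egln1 window was G or C, against 50.8% of the Egln3 window. Shown are the 5 called genes with an entry, followed by Ankrd37, which was not called and had the most matches. Each is written 5′ to 3′ on the gene's strand, in GRCm38.p6, with cores in capitals (CACGT and CACGC are cores read on the opposite strand).
Egln1 (chr8:124949255-124949504, minus strand): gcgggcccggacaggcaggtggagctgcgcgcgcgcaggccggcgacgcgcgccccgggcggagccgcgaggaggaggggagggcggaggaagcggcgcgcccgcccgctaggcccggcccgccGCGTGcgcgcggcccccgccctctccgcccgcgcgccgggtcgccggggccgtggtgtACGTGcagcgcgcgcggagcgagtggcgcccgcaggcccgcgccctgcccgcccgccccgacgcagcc
P4ha1 (chr10:59323046-59323295, plus strand): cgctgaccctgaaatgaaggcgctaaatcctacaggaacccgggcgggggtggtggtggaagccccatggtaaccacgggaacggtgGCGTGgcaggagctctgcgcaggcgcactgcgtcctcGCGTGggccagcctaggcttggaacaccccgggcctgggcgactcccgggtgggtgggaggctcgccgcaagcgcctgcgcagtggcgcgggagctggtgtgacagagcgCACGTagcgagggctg
P4ha2 (chr11:54100674-54100923, plus strand): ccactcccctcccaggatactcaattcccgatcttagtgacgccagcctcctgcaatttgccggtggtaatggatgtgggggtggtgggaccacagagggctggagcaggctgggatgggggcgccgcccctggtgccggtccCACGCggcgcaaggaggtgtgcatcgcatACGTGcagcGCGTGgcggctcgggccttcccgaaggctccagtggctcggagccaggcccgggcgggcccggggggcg
Adm (chr7:110627407-110627656, plus strand): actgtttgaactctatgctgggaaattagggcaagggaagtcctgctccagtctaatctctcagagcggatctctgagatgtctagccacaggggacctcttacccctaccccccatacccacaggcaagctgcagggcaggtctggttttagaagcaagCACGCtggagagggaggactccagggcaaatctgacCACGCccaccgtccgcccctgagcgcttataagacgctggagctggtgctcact
Car9 (chr4:43506776-43507025, plus strand): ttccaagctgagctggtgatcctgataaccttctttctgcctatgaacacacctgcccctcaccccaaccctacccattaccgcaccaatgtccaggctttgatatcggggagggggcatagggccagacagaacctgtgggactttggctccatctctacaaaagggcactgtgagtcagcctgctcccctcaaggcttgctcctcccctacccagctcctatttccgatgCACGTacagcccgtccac
Ankrd37 (chr8:45999851-46000100, minus strand): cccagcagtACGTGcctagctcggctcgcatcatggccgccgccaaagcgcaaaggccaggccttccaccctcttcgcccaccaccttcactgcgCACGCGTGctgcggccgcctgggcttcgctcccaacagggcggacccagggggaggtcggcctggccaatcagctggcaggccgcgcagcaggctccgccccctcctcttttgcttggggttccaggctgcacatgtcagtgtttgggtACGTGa

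The positions of the cores varied among the genes. Car9 held a single core, on the opposite strand at bases -18 to -14 before the start, and P4ha1 had ACGTG on the opposite strand at -16 to -12 besides GCGTG at -163 and -126. P4ha2 held ACGTG at -78 and GCGTG at -69 on its own strand and a further GCGTG at -107 on the opposite strand. Adm held GCGTG only, at -90 and -54 on the opposite strand. Egln1 had 1 core of each kind, at -126 and -68. Ankrd37, whose transcript level did not differ by the test, had 4 cores, of which 2 overlap as CACGCGTG. The Hif1a window held 3 ACGTG matches, of which 2 are the strands of a palindromic CACGTG. A match describes these letters only, since binding of the factors was not measured.

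**Figure D2:**
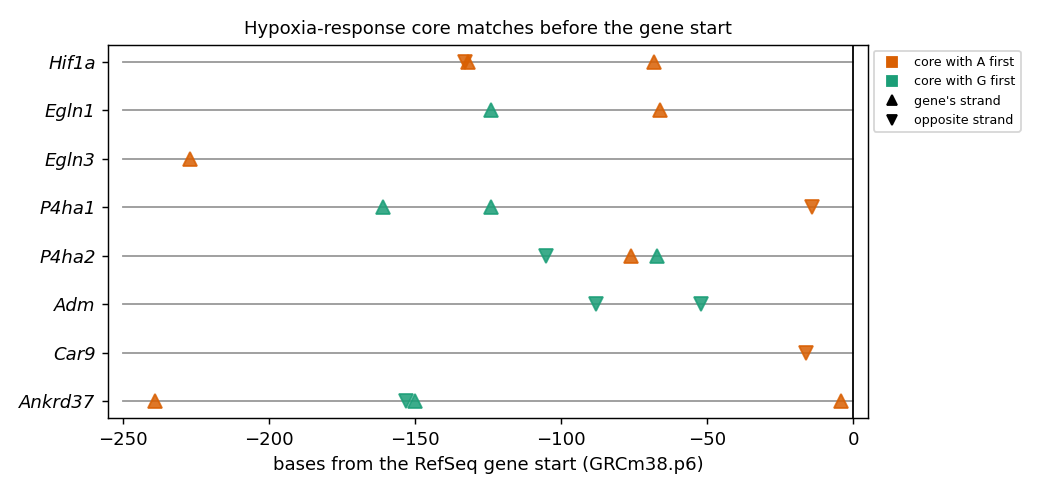
Positions of hypoxia-response core matches in the 250 bases before the RefSeq start of the 8 genes with an entry (horizontal axis, bases from the start); colour gives the core and the direction of the symbol gives the strand. Each row holds at least 1 match, and Ankrd37 holds the most, with 4.

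Hif1a (ENSMUSG00000021109, chr12:73901375-73947530, plus strand, GRCm38) encodes the oxygen-regulated subunit found in most cell types. It had 41.8, 41.6 and 23.8 FPKM in Wtap-CKO hearts, against 27.9, 36.4 and 35.8 FPKM in Wtapflox/flox hearts. The first 2 Wtap-CKO hearts were the highest of all and the third was the lowest of all, so the groups overlapped. The log2 fold change was 0.06 (95% interval -0.45 to 0.58, limma adjusted p = 0.878), and its sign turned under TPM, upper-quartile and quantile scaling. The third Wtap-CKO heart decided the value: without it the log2 fold change was 0.32, with an adjusted p of 0.183. That heart also had the highest summed macrophage and monocyte markers, 145.9 FPKM against at most 59.9 FPKM in Wtapflox/flox hearts, and the highest neutrophil markers, 93.8 FPKM against at most 12.4 FPKM. Whether this bears on Hif1a was not tested.

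Epas1 (ENSMUSG00000024140, chr17:86753907-86833410, plus strand) encodes HIF-2 alpha, which is prominent in endothelial cells. It had 29.8, 37.8 and 28.5 FPKM in Wtap-CKO hearts, against 45.6, 34.6 and 32.1 FPKM in Wtapflox/flox hearts. Wtap-CKO 2 lay within the range of the Wtapflox/flox hearts and the other Wtap-CKO hearts below it, so the groups overlapped. The log2 fold change was -0.21 (95% interval -0.60 to 0.18, limma adjusted p = 0.44), with the same sign under all 19 alternatives. Endothelial markers, 10 of 10 tested, summed to 501 to 526 FPKM in Wtap-CKO hearts and 420 to 446 FPKM in Wtapflox/flox hearts. Their median log2 fold change was only 0.04. Of them 2 (Cldn5 and Emcn) rose, 1 (Kdr) fell, and 0 were at 0 in every library. The Kdr call was at the threshold (limma adjusted p = 0.0497), and 0 endothelial markers were called lower when any single heart was left out. Their part in the Epas1 value was not tested.

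The ratio of Hif1a to Epas1 transcripts, computed on FPKM, was 1.40, 1.10 and 0.837 in Wtap-CKO hearts and 0.613, 1.05 and 1.12 in Wtapflox/flox hearts. The ratios of the groups overlapped, with a mean log2 difference of 0.28 (exact two-sided permutation test, p = 0.6, where 3 against 3 cannot go below 0.1). Both alpha genes were expressed at close levels, with means over all hearts of 34.6 FPKM for Hif1a and 34.7 FPKM for Epas1.

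Egln1 (ENSMUSG00000031987, chr8:124908587-124949324, minus strand) encodes PHD2, the main oxygen sensor of the pathway, and had the highest level of the 10 genes. It had 97.3, 103 and 79.9 FPKM in Wtap-CKO hearts, against 62.4, 67.1 and 64.3 FPKM in Wtapflox/flox hearts. Every Wtap-CKO heart was higher than every Wtapflox/flox heart, and Wtap-CKO 3 lay nearest to them. Egln1 rose by a log2 fold change of 0.52 (95% interval 0.19 to 0.84, limma adjusted p = 0.0417), and the means were 93.3 ± 12.0 FPKM in Wtap-CKO hearts and 64.6 ± 2.36 FPKM in Wtapflox/flox hearts (SD, n = 3 each). This call was near the threshold and was made under 8 of 19 alternatives. It was kept without Wtap-CKO 3 (adjusted p = 0.016) and lost without any other single heart, with adjusted p of 0.139 without Wtap-CKO 1, 0.0951 without Wtap-CKO 2, 0.112 without Wtapflox/flox 1, 0.111 without Wtapflox/flox 2 and 0.111 without Wtapflox/flox 3.

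Egln3 (ENSMUSG00000035105, chr12:54178981-54203860, minus strand) encodes PHD3, the family member whose transcript is known for strong induction by hypoxia in many cell types. It had 33.4, 32.1 and 28.6 FPKM in Wtap-CKO hearts, against 18.4, 26.1 and 23.7 FPKM in Wtapflox/flox hearts. The groups did not overlap, but the lowest Wtap-CKO heart was close to the highest Wtapflox/flox heart. The log2 fold change of 0.46 (95% interval 0.12 to 0.80) had a limma adjusted p of 0.0706 and was not called. It passed the threshold with limma-voom on recovered reads (adjusted p = 0.0428) and with array weights (0.0352).

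The ratio of Egln3 to Egln1 was 0.344, 0.312 and 0.358 in Wtap-CKO hearts, against 0.295, 0.389 and 0.368 in Wtapflox/flox hearts. All 3 Wtap-CKO ratios lay inside the Wtapflox/flox range, and the mean log2 difference was -0.05 (exact two-sided permutation test, p = 0.7), turning in sign without Wtap-CKO 2 (0.01) or Wtapflox/flox 2 (0.03).

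The remaining regulators of the factors came from a list of other HIF subunits and regulators, of which 19 genes were tested. In it 2 rose and 0 fell, and the median log2 fold change was 0.09. The share called higher, 10.5%, was near the 9.91% of all tested genes. At an unadjusted limma p of 0.05 the counts were 5 higher and 2 lower. Limma-voom called 3 higher and 1 lower, against 11.7% higher and 8.46% lower of all tested genes. Without Wtap-CKO 1 or Wtapflox/flox 3, and with no filter, 1 was called higher. Without Wtap-CKO 2 the counts were 2 higher and 1 lower, and under TPM 1 higher and 2 lower. Cited4, whose protein binds the p300 and CBP coactivators that HIF uses, averaged 134.8 ± 16.0 FPKM in Wtap-CKO hearts and 64.9 ± 15.3 FPKM in Wtapflox/flox hearts, a log2 fold change of 1.07 (limma adjusted p = 0.0084). Siah2, a ubiquitin ligase that targets PHD proteins, averaged 9.27 ± 1.48 and 5.68 ± 1.2 FPKM in Wtap-CKO and Wtapflox/flox hearts, a log2 fold change of 0.63 (adjusted p = 0.0327, and 0.0722, 0.0764, 0.104 and 0.0793 without Wtap-CKO 1, Wtap-CKO 2, Wtapflox/flox 1 and Wtapflox/flox 3). Of the destruction route, Egln1 was called higher, as given above. Vhl and Egln2, the third HIF prolyl hydroxylase, were not called, with log2 fold changes of -0.17 (adjusted p = 0.381) and 0.16 (0.396). Nor was the partner subunit Arnt, at -0.20 (0.353). Hif1an, which encodes the asparagine hydroxylase FIH, had 9.76, 11.8 and 9.75 FPKM in Wtap-CKO hearts, against 17.4, 13.8 and 13.0 FPKM in Wtapflox/flox hearts. Its groups did not overlap, and its log2 fold change of -0.46 had an adjusted p of 0.0594.

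P4ha1 and P4ha2 encode alternative catalytic subunits of the enzyme that hydroxylates prolines of collagen in the endoplasmic reticulum, a step needed for a stable triple helix. P4ha1 (ENSMUSG00000019916, chr10:59323296-59373304, plus strand) had 21.4, 20.5 and 21.6 FPKM in Wtap-CKO hearts, against 10.4, 13.4 and 11.9 FPKM in Wtapflox/flox hearts. The Wtap-CKO hearts were nearly equal to each other and all far above the Wtapflox/flox hearts. The means of 21.2 ± 0.572 FPKM in Wtap-CKO hearts and 11.9 ± 1.498 FPKM in Wtapflox/flox hearts (SD, n = 3 each) gave a ratio of 1.78 and a log2 fold change of 0.79 (95% interval 0.51 to 1.07, limma adjusted p = 0.00409). The call held under all 19 alternatives.

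P4ha2 (ENSMUSG00000018906, chr11:54100095-54131665, plus strand) had 7.39, 7.42 and 7.63 FPKM in Wtap-CKO hearts, against 5.04, 5.70 and 4.18 FPKM in Wtapflox/flox hearts. Again the Wtap-CKO hearts clustered closely and the groups did not overlap. P4ha2 rose by a log2 fold change of 0.51 (95% interval 0.23 to 0.80, limma adjusted p = 0.0253), a ratio of means of 1.505. The call was made under 14 of 19 alternatives and was lost without Wtap-CKO 1 (adjusted p = 0.0721), Wtapflox/flox 1 (0.0676) or Wtapflox/flox 3 (0.0837). The ratio of P4ha2 to P4ha1 was 0.346, 0.361 and 0.353 in Wtap-CKO hearts, against 0.484, 0.425 and 0.351 in Wtapflox/flox hearts. The ratios overlapped through Wtapflox/flox 3, and the mean log2 difference of -0.24 had an exact two-sided permutation p of 0.3.

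Other enzymes that modify or crosslink collagen were higher alongside them. Of 14 tested genes on that list, 10 rose and 0 fell, with a median log2 fold change of 0.59. The share called higher was 71.4%, against 9.91% of all tested genes, on a list chosen with earlier results of these data known. Plod2, the lysyl hydroxylase of collagen telopeptides, averaged 24.9 ± 6.16 FPKM in Wtap-CKO hearts and 8.56 ± 0.951 FPKM in Wtapflox/flox hearts (log2 fold change 1.41, limma adjusted p = 0.00208). P4ha3, which encodes the third catalytic subunit of the same enzyme as P4ha1, averaged 6.05 ± 0.0632 and 3.29 ± 0.454 FPKM in Wtap-CKO and Wtapflox/flox hearts (0.72, adjusted p = 0.00505). The prolyl 3-hydroxylase genes P3h1 and P3h2 had log2 fold changes of 0.74 (0.00475) and 1.30 (0.00509). The count of higher genes fell to 5 without Wtapflox/flox 3 and to 6 without Wtap-CKO 1, Wtapflox/flox 1 or Wtapflox/flox 2, and was also 6 under TPM and with no filter.
Fibroblast markers, all 10 tested, ran the other way, summing to 590 to 775.6 FPKM in Wtap-CKO hearts and 775.8 to 890 FPKM in Wtapflox/flox hearts, with 0 called higher, 3 lower and 0 at 0 in every library. The 3 lower calls became 1 without any single heart other than Wtap-CKO 3. Epicardial markers, 5 tested, summed to 50.6 to 51.3 FPKM in Wtap-CKO hearts and 32.8 to 36.8 FPKM in Wtapflox/flox hearts; 1 rose and 0 were at 0 in every library. Their part in the enzyme levels was not tested.

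**Figure D3:**
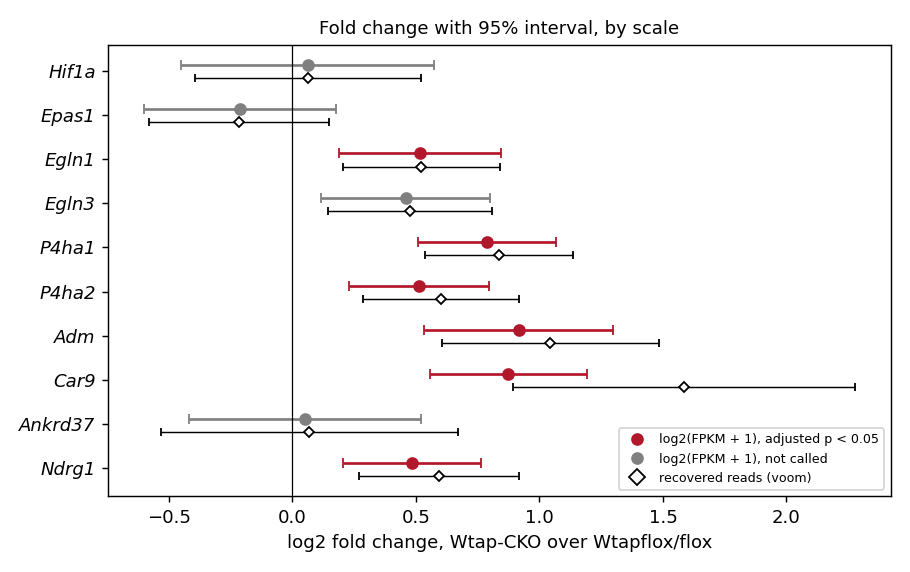
Log2 fold change, Wtap-CKO over Wtapflox/flox, of each of the 10 genes with its 95% interval (horizontal axis), from log2(FPKM + 1) and from limma-voom on recovered reads. Intervals of Hif1a, Epas1 and Ankrd37 span 0, and the scales differ most for Car9, at 0.88 and 1.58.

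Adm (ENSMUSG00000030790, chr7:110627661-110629820, plus strand) encodes the secreted vasodilator peptide adrenomedullin. It had 10.8, 9.84 and 14.3 FPKM in Wtap-CKO hearts, against 4.85, 6.92 and 5.26 FPKM in Wtapflox/flox hearts. All Wtap-CKO hearts were higher, with Wtap-CKO 3 the highest. Adm rose by a log2 fold change of 0.92 (95% interval 0.53 to 1.30, limma adjusted p = 0.00797), from means of 11.6 ± 2.35 FPKM in Wtap-CKO hearts and 5.68 ± 1.09 FPKM in Wtapflox/flox hearts (SD, n = 3 each), a ratio of 2.05. The call held under all 19 alternatives. The antisense gene Gm28863, which covers the Adm locus, had means of 0.0939 and 0 FPKM in Wtap-CKO and Wtapflox/flox hearts.

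The genes that form or act on the adrenomedullin receptor were not called with it. Of 8 tested genes of the adrenomedullin family and its receptors, limma called 0 higher and 0 lower. Among all tested genes 9.91% were called higher and 6.69% lower, and a list of 8 is too short to differ clearly from that. At an unadjusted limma p of 0.05, 3 were higher and 1 lower. Limma-voom called 1 in each direction, against 11.7% higher and 8.46% lower of all tested genes. Calcrl, the receptor itself, had 6.38, 6.87 and 4.82 FPKM in Wtap-CKO hearts, against 7.59, 6.15 and 10.3 FPKM in Wtapflox/flox hearts, a log2 fold change of -0.35 (adjusted p = 0.244). Ramp2, the subunit that gives the receptor its selectivity for adrenomedullin, had a log2 fold change of -0.16 (0.522), with overlapping groups. Ramp3, the alternative subunit, had 3.90, 2.86 and 5.06 FPKM in Wtap-CKO hearts, against 2.20, 0.866 and 2.49 FPKM in Wtapflox/flox hearts. Its groups did not overlap, and its log2 fold change of 0.82 had an adjusted p of 0.0757.

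Car9 (ENSMUSG00000028463, chr4:43506966-43513729, plus strand) encodes a carbonic anhydrase of the cell surface that acidifies the outside of hypoxic cells and is low in most normal tissues. It had 2.42, 2.22 and 1.75 FPKM in Wtap-CKO hearts, against 0.622, 0.847 and 0.637 FPKM in Wtapflox/flox hearts, from 71 to 90 reads in Wtap-CKO hearts and 25 to 31 reads in Wtapflox/flox hearts. The lowest Wtap-CKO heart was well above the highest Wtapflox/flox heart, although the level stayed the lowest of the 10 genes in each group. Its means were 2.13 ± 0.345 FPKM in Wtap-CKO hearts and 0.702 ± 0.125 FPKM in Wtapflox/flox hearts (SD, n = 3 each), a ratio of 3.03. On log2(FPKM + 1) the log2 fold change was 0.88 (95% interval 0.56 to 1.19, limma adjusted p = 0.00444). The added 1 understates changes at this level, and limma-voom on recovered reads gave 1.58 (95% interval 0.89 to 2.28, adjusted p = 0.00363). Both fits used the filter that Car9 passed only through its Wtap-CKO values. With no filter the limma adjusted p was 0.0183. Car9 overlaps the antisense gene Gm12454 over 1782 bases. Gm12454 averaged 1.78 ± 0.369 FPKM in Wtap-CKO hearts and 1.33 ± 0.149 FPKM in Wtapflox/flox hearts (log2 fold change 0.25, adjusted p = 0.271). The labels do not state strandedness, so reads of Car9 and Gm12454 cannot be told apart and the Car9 level is uncertain.

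Among the other carbonic anhydrase genes, 5 were tested, 1 rose and 0 fell, with a median log2 fold change of 0.00. That 1 gene was 20.0% of this short list, against 9.91% called higher among all tested genes. Car4, which encodes a membrane-anchored enzyme of capillaries and muscle, had 11.1, 12.8 and 13.0 FPKM in Wtap-CKO hearts, against 8.84, 6.59 and 7.87 FPKM in Wtapflox/flox hearts. The groups did not overlap, and the log2 fold change of 0.61 had a limma adjusted p of 0.0167 (0.0706 without Wtapflox/flox 2). Car4 was not called under TPM or with no filter. Car14, a transmembrane enzyme, averaged 30.4 ± 1.87 FPKM in Wtap-CKO hearts and 30.4 ± 1.26 FPKM in Wtapflox/flox hearts.

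Ankrd37 (ENSMUSG00000050914, chr8:45996902-46005707, minus strand) encodes an ankyrin repeat protein known mainly as a transcript induced by HIF-1. It had 3.50, 3.62 and 4.20 FPKM in Wtap-CKO hearts, against 3.43, 2.45 and 5.35 FPKM in Wtapflox/flox hearts. All Wtap-CKO hearts lay inside the range of the Wtapflox/flox hearts, whose spread was the wider one. The log2 fold change was 0.05 (95% interval -0.42 to 0.52, limma adjusted p = 0.891), and its sign turned under TPM and upper-quartile scaling and without Wtap-CKO 3 or Wtapflox/flox 2. The gene rested on 60 to 146 reads per library, and its span in the file overlaps Lrp2bp over 6405 bases and Ufsp2 over 57 bases on the opposite strand. Its level is therefore uncertain as well.

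Ndrg1 (ENSMUSG00000005125, chr15:66929318-66969640, minus strand) encodes a stress-responsive protein of the N-myc downstream-regulated family. It had 5.19, 6.02 and 5.23 FPKM in Wtap-CKO hearts, against 3.17, 3.65 and 4.09 FPKM in Wtapflox/flox hearts. Every Wtap-CKO heart was higher than every Wtapflox/flox heart. Ndrg1 rose by a log2 fold change of 0.49 (95% interval 0.21 to 0.77, limma adjusted p = 0.0297), a ratio of means of 1.51. The call was made under 10 of 18 alternatives and was lost without Wtap-CKO 1 (adjusted p = 0.0679), Wtap-CKO 2 (0.0737), Wtapflox/flox 1 (0.102) or Wtapflox/flox 2 (0.0898).

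The other 3 Ndrg genes gave no calls by limma (0 at an unadjusted p of 0.05, and 0 by limma-voom), with a median log2 fold change of -0.06. Among all tested genes limma called 9.91% higher and 6.69% lower, so 0 calls among 3 genes say little. Ndrg2 averaged 157 ± 6.69 FPKM in Wtap-CKO hearts and 159 ± 5.65 FPKM in Wtapflox/flox hearts. Ndrg4 averaged 132 ± 6.80 FPKM in Wtap-CKO hearts and 152 ± 15.6 FPKM in Wtapflox/flox hearts (log2 fold change -0.20, adjusted p = 0.391). Both were expressed far above Ndrg1 on this scale, which is per kilobase.

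**Figure D4:**
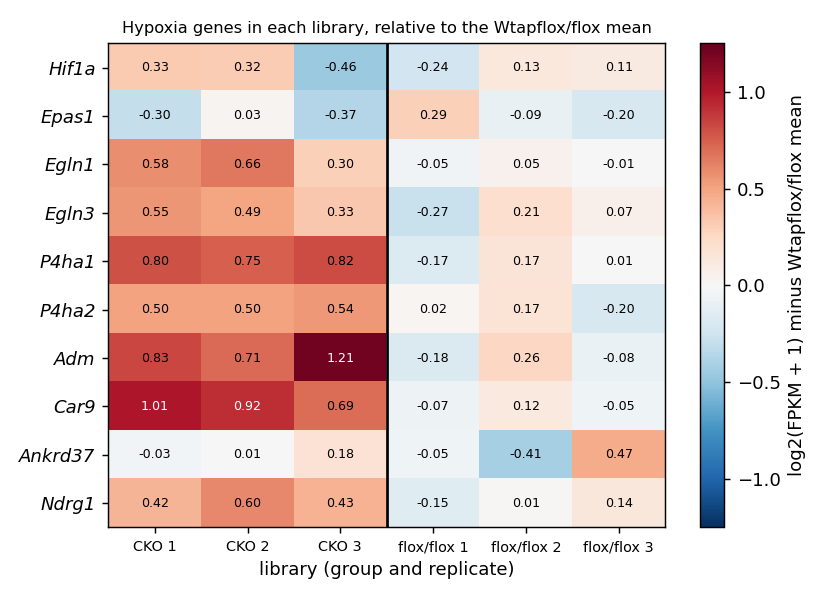
Each gene's log2(FPKM + 1) in each heart minus its Wtapflox/flox mean (colour and number), for 3 Wtap-CKO hearts (left) and 3 Wtapflox/flox hearts (right). P4ha1, Adm and Car9 are at least 0.69 above the Wtapflox/flox mean in every Wtap-CKO heart, whereas Hif1a is 0.33 and 0.32 above it in the first 2 and 0.46 below it in the third.

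Across the genes the order of levels in FPKM was similar in both groups. In Wtap-CKO hearts Egln1 was highest, followed by Hif1a, Epas1 and Egln3, whose ranges overlapped, and then by P4ha1, Adm, P4ha2, Ndrg1, Ankrd37 and Car9, none of whose ranges met those of their neighbours. In Wtapflox/flox hearts Egln1 was again highest. Epas1 and Hif1a overlapped next, then came Egln3 and P4ha1, and then Adm, P4ha2, Ankrd37 and Ndrg1, among which Adm overlapped P4ha2 and Ankrd37 overlapped the other 3. Car9 was lowest. Within the Wtap-CKO group the genes did not vary together from heart to heart: Wtap-CKO 3 was the lowest of its group for Hif1a, Epas1, Egln1, Egln3 and Car9, and the highest for P4ha1, P4ha2, Adm and Ankrd37.

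Genes with the most similar profiles were sought by the root mean square difference of log2(FPKM + 1) over the 6 libraries, after each gene's own mean was subtracted. The closest protein coding gene to Car9 was Spry1, a feedback inhibitor of receptor tyrosine kinase signalling, with a difference of 0.029. P4ha1 was closest to Rrs1, a ribosome assembly factor, at 0.032, and Egln1 to Mtmr10 at 0.032. P4ha2 lay nearest to Eng, an endothelial coreceptor of the TGF-beta family, at 0.040. Adm lay nearest to Tinagl1, a matrix protein, at 0.060. Ndrg1 was closest to Zfp775 at 0.034 and Egln3 to Ctps at 0.043. Epas1 was closest to the histone deacetylase gene Hdac4 at 0.032, and Ankrd37 to Ly96 at 0.051. Hif1a had the least close neighbour, the kinesin gene Kif5b, at 0.079. Because the profiles include the difference between the groups, such neighbours share it, and a likeness over 6 libraries is a description only.

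Further HIF target genes were taken from a pair of lists, for glucose use and for other roles, chosen with earlier results of these data known. Of 23 tested genes for glucose use, 6 (26.1%) rose and 0 fell, with a median log2 fold change of 0.19. Among all tested genes 9.91% were called higher and 6.69% lower. Slc2a1, the GLUT1 glucose transporter gene, averaged 25.3 ± 1.35 FPKM in Wtap-CKO hearts and 10.4 ± 2.81 FPKM in Wtapflox/flox hearts (log2 fold change 1.23, limma adjusted p = 0.00315). Slc16a3, the lactate exporter MCT4, averaged 18.0 ± 2.95 FPKM in Wtap-CKO hearts and 4.57 ± 2.15 FPKM in Wtapflox/flox hearts (1.83, adjusted p = 0.00462). Pfkp, a phosphofructokinase gene, averaged 24.2 ± 2.63 and 13.2 ± 1.92 FPKM in Wtap-CKO and Wtapflox/flox hearts (0.83, adjusted p = 0.00555). Common HIF targets of the same list were not called: Pgk1 had a log2 fold change of 0.35 (0.262), Ldha 0.08 (0.802) and Pdk1 -0.18 (0.425). The count of higher genes was 3 without Wtap-CKO 2, Wtapflox/flox 1 or Wtapflox/flox 3, and 3 under TPM and with no filter.

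Of 40 tested HIF targets with other roles, 12 (30.0%) rose and 3 (7.5%) fell, against 9.91% and 6.69% of all tested genes. Their median log2 fold change was 0.14. Edn1, the vasoconstrictor endothelin, averaged 20.4 ± 2.45 FPKM in Wtap-CKO hearts and 5.62 ± 1.31 FPKM in Wtapflox/flox hearts (log2 fold change 1.70, limma adjusted p = 0.000732). Ddit4, an inhibitor of mTORC1 signalling, had a log2 fold change of 1.23 (0.000993), and Maff, a small basic leucine zipper factor, had 1.49 (0.0017). The fall with the smallest adjusted p was that of Zfp395, which averaged 8.47 ± 0.635 FPKM in Wtap-CKO hearts and 12.3 ± 1.06 FPKM in Wtapflox/flox hearts (-0.48, adjusted p = 0.025). That call was lost without Wtap-CKO 1 (0.0879), Wtapflox/flox 1 (0.0873), Wtapflox/flox 2 (0.0648) or Wtapflox/flox 3 (0.0588). The 3 calls of lower genes went to 0 without Wtap-CKO 1 or Wtapflox/flox 1 and with no filter, and to 1 without Wtap-CKO 2, Wtapflox/flox 2 or Wtapflox/flox 3, and the 12 higher calls to 7 with no filter. Vegfa, the best known HIF target for vessel growth, had 81.5, 86.5 and 101 FPKM in Wtap-CKO hearts, against 88.5, 103 and 77.1 FPKM in Wtapflox/flox hearts. Its groups overlapped, with a log2 fold change of 0.01 (95% interval -0.36 to 0.37, adjusted p = 0.983). Macrophage and monocyte markers, 9 tested with 3 called higher, summed to 77.2 to 145.9 FPKM in Wtap-CKO hearts and 53.0 to 59.9 FPKM in Wtapflox/flox hearts, with Wtap-CKO 3 the highest. Those 3 calls became 0 without Wtapflox/flox 1 or Wtapflox/flox 2 and with no filter, and 1 without Wtap-CKO 1 or Wtapflox/flox 3. Neutrophil markers, 5 tested with 1 called higher, summed to 14.5 to 93.8 FPKM in Wtap-CKO hearts and 6.75 to 12.4 FPKM in Wtapflox/flox hearts. Of these 5, 2 were tested only through their Wtap-CKO values, and the called gene was 1 of those 2. Of either marker list 0 were at 0 in every library, and their part in these levels was not tested.

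**Figure D5:**
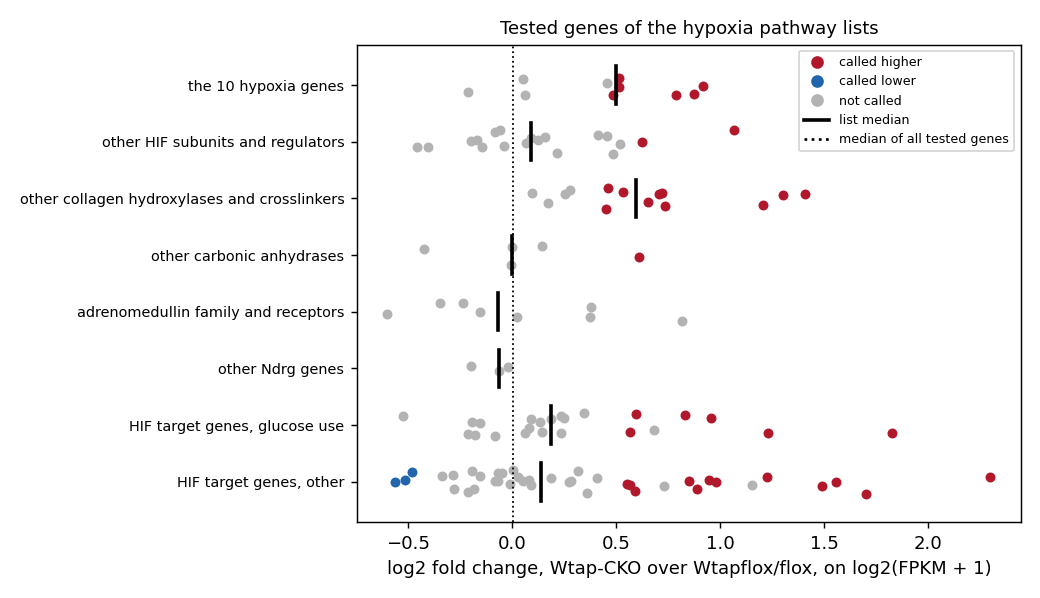
Log2 fold change, Wtap-CKO over Wtapflox/flox, on log2(FPKM + 1) (horizontal axis) of each tested gene of the 10 hypoxia genes and the related lists; red and blue mark genes called higher and lower, and bars give the list medians. The collagen enzyme list has the highest median, 0.59, with 10 of 14 genes called higher, and the dotted line marks the median of all tested genes, 0.00.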

How the data were processed

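The authors deposited FPKM values and gene lengths in bases for 54532 genes in 6 libraries. The submitters' processing notes name CASAVA, HISAT2 2.0.5 for alignment, featureCounts 1.5.0-p3 for counting, DESeq2 1.20.0 and the build GRCm39. The coordinates in the file match GRCm38: of the protein coding genes compared, 94.9% of 20477 lay within 1000 bases of a GRCm38.p6 position and 3.36% of 21728 of a GRCm39 position. Strandedness and the counting of overlapping genes are not stated by the labels. FPKM times length gave whole reads for 100.0% of values (tolerance 0.01 reads), and the implied library sizes equalled median-ratio scaling. A single read in a gene of 1 kb was worth 0.0564 to 0.0647 FPKM.

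Genes whose mean reached 1 FPKM were fitted on log2(FPKM + 1) by limma 3.58.1 in R 4.3.3, using its trend and robust options and no covariates. P-values were two-sided and Benjamini-Hochberg adjusted over the 12568 tested genes, with a threshold of 0.05 and intervals at 95%. They measure the spread between 3 hearts a group. The pseudocount of 1 understates changes of low genes. Ratios were compared by exact permutation. Other work used Python 3.11.15 with scipy 1.17.1, pandas 2.3.3, matplotlib 3.10.9 and numpy 2.4.6. The fit was tested on simulated data.

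The 10 genes and all lists were chosen with earlier results of these data known. Of 219 list symbols, 216 were found as written, 2 under an older symbol and 1 not at all, and 1 stood on 2 IDs, of which the longer gene was used. Named are the 10 genes, Wtap, up to 4 called genes per list with the smallest adjusted p, the first in the opposite direction and the closest profiles. Hif1an, Egln2, Arnt, Vhl, Calcrl, Ramp2, Ramp3, Car14, Ndrg2, Ndrg4, Pgk1, Ldha, Pdk1, Vegfa, the genes overlapping the 10 and the named endothelial markers were added after their values were seen. Alternatives were other pseudocounts, filters and scalings, limma without trend or robust moderation, with array weights or a replicate block, limma-voom on recovered reads, and each heart left out.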

Additional observations from a re-analysis of the deposited data

How the results depend on the processing

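Of the 10 hypoxia genes 6 were called higher, and between 3 and 7 under the 19 alternatives, always with 0 lower. The count was 3 with no filter, 3 under TPM (a fixed total per library) and 3 to 6 when each heart was left out. Over all tested genes, 1245 were called higher and 841 lower. The counts were 2056 and 1676 with array weights, and 709 to 1194 and 428 to 818 with each heart left out. Filters changed the number of tested genes. With no filter 27201 were tested, and 723 were higher and 483 lower (2.66% and 1.78%). With a mean of at least 5 FPKM 7391 were tested, of which 13.4% were higher and 471, or 6.37%, were lower. Under TPM the median over all genes moved to a log2 fold change of -0.15 and the calls to 796 higher and 1584 lower (6.33% and 12.6%); upper-quartile scaling gave 990 and 1191 (7.88% and 9.48%). TPM divides each library by its sum of FPKM. That sum was 357870.5 to 388328.2 in Wtap-CKO libraries and 315631.9 to 339917.4 in Wtapflox/flox libraries. The cause of the difference in sums and of the other shifts was not tested. Under TPM Hif1a gave -0.10 and Ankrd37 -0.085, values above the TPM median of -0.15.

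Signs turned for 4 values near 0. Hif1a gave -0.025 under upper-quartile scaling, -0.051 under quantile normalization and -0.070 to 0.32 with each heart left out, below 0 without Wtap-CKO 1, Wtap-CKO 2 or Wtapflox/flox 1. Ankrd37 gave -0.019 under upper-quartile scaling and -0.16 to 0.28 with each heart left out, below 0 without Wtap-CKO 3 or Wtapflox/flox 2. Wtap gave 0.0076 with array weights and -0.13 to 0.086 with each heart left out, above 0 without Wtap-CKO 2 or Wtapflox/flox 3. The log2 difference of the Egln3 to Egln1 ratio ran from -0.165 to 0.034 with each heart left out.

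Libraries share replicate numbers, but same-numbered hearts did not deviate together (r = -0.22, -0.08 and -0.08). Differently numbered hearts gave r between -0.14 and 0.26. With 3 hearts a group these values cannot settle whether the numbers pair the hearts. With a replicate block 4 of the 10 genes were called higher, and over all genes 1048 higher and 625 lower. A further 773 values under the alternatives were gene fold changes and list counts. Of these 659 were unchanged: fold changes that kept their sign and side of the threshold, and counts that stayed close to the main count. Among the others 53 counts moved, 13 fold changes turned in sign, 46 lost their call and 2 gained a call. Car9 (25 to 90 reads per library) and Ankrd37 (60 to 146) had the fewest reads and the widest limma-voom intervals of the 10 genes. Ankrd37 also varied widely among Wtapflox/flox hearts (SD 39.4% of the mean, against 9.95% in Wtap-CKO hearts). The cause of the wide intervals was not tested.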

Other observations

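Genes of the same families that fell below the filter also differed between the groups in places; they were chosen after their values were seen. Loxl4, a lysyl oxidase-like gene, had 1.01, 1.45 and 0.969 FPKM in Wtap-CKO hearts, against 0.395, 0.329 and 0.268 FPKM in Wtapflox/flox hearts. All Wtap-CKO hearts were higher, with a log2 fold change of 0.68 (limma adjusted p = 0.0185 with a filter of 0.1 FPKM and 0.0347 with none). Car3, the muscle carbonic anhydrase, ran the other way from Car9, with 0.281, 0.384 and 0.693 FPKM in Wtap-CKO hearts, against 1.16, 1.03 and 1.06 FPKM in Wtapflox/flox hearts. All Wtap-CKO hearts were lower, with a log2 fold change of -0.53 (adjusted p = 0.0495 with a filter of 0.1 FPKM and 0.0823 with none).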
